A study of Mus musculus with 4 samples.

Results

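The genes described here are 10 subunits of the Polycomb repressive complexes, taken by symbol: Ezh1, Ezh2, Eed, Suz12, Jarid2, Mtf2 and Phf19 of PRC2, and Cbx2, Cbx7 and Rnf2 of PRC1. Each matched 1 Ensembl identifier, so that 10 of the 37620 identifiers in the count tables were followed. The counts came from 4 strand-specific RNA-seq libraries of mouse cells, 1 per condition. The study asked how signaling inputs hold or loosen pluripotency and whether a chosen combination moves the cells toward a trophoblast-like program. 3 libraries were made from R1 cells, a line of mouse embryonic stem cells (mESCs), cultured for 2 days with serum, without feeder cells and without leukemia inhibitory factor (LIF). All 3 received CHIR99021, a GSK3 inhibitor, at 3 µM and PD0325901, a MEK inhibitor, at 1 µM, the pair known as 2i. The 2i-L library had nothing else (label 2i). The 2iJ library had in addition a JAK inhibitor at 2 µM (label 2i-Jaki). The 2iJ+B-A library had the JAK inhibitor at 2 µM with BMP4 at 10 ng/ml and ALK5 inhibitor II at 10 µM (label 2i-Jaki-BMP-Alk5i). The remaining library was made from F4, a trophoblast stem cell (TSC) line, labeled day 2 and carrying no treatment label. Because R1 and F4 are separate lines grown in separate media, line, medium and cell type cannot be told apart in any comparison with TSC.

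PRC2 places methyl groups on a lysine of the histone H3 tail, and PRC1 places ubiquitin on histone H2A. Together they keep many developmental genes silent in mESCs, and the mark of one complex can help recruit the other. Both complexes are built around a fixed core with interchangeable partners, so the same enzyme can sit in assemblies that find chromatin in different ways. In PRC2, EZH1 or EZH2 is the methyltransferase, and EED and SUZ12 are among the other core subunits. Either the Polycomb-like proteins (MTF2, PHF19 and PHF1) or JARID2 with AEBP2 are added. In PRC1, RING1B (gene Rnf2) or RING1A carries the ubiquitin ligase activity, a PCGF protein sets the type of complex, and a CBX protein in the canonical type reads the PRC2 mark.

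Counts on genes ranged from 33913984 (TSC) to 36964392 (2iJ+B-A) read pairs, 82.2% to 83.6% of the pairs listed for each library. Levels are given as counts per 1000000 counts on genes (CPM) after TMM scaling, a correction for library composition. No condition had a replicate, so no difference below could be set against variation between cultures, and no p-value is given. The 95% intervals cover counting error only. In bulk RNA, fewer cells of a type and less RNA per cell cannot be told apart. The labels were checked against marker genes. The 5 mESC markers (Pou5f1, Sox2, Nanog, Zfp42 and Esrrb) summed to 3410 CPM in 2i-L, 2984 in 2iJ and 2076 in 2iJ+B-A, and 528 in TSC. In TSC, Pou5f1 was at 1.34 CPM and Nanog at 2.65, while Sox2, Zfp42 and Esrrb were still at 154, 123 and 248. Counts of Pou5f1, Zfp42, Esrrb and Nanog are uncertain, since 100%, 99.1%, 90.2% and 71.8% of their transcripts match elsewhere in the genome. A gene listed at a place matching Pou5f1 had up to 4146 counts. The 4 TSC markers read here (Cdx2, Eomes, Elf5 and Hand1) summed to 16.7, 18.7, 140.0 and 905 CPM in the same order, while Elf5 was at 298 CPM in TSC and at most 0.13 in the R1 libraries. 5 primitive endoderm markers summed to 5.41, 5.50, 24.2 and 33.0 CPM. In TSC, Gata4 alone was at 23.5 CPM and Sox17 at 0.14, below its 0.41 in 2iJ. The 7 fibroblast markers summed to 37.6, 36.4, 21.1 and 3.50 CPM, with 3 of the 7 at 0 in TSC. Among them, Col1a1 (18.8 to 4.34 CPM), Col1a2, Postn and Dcn were lower in 2iJ+B-A than in 2iJ. Col3a1 (4.34 to 5.86 CPM), Thy1 and Lum were higher. These marker levels move with the differences in 2iJ+B-A and TSC given below, and their part in them was not tested.

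Among the listed methyltransferase and core genes of PRC2, Ezh2 and Suz12 stayed within a narrow range in all 4 libraries, Ezh1 was highest in TSC and Eed was lowest there. Ezh2 (ENSMUSG00000029687, chromosome 6, 47480273 to 47545340, minus strand, build NCBIM37) was measured at 234 CPM in 2i-L, 193 in 2iJ and 193 in 2iJ+B-A, and 187 in TSC. It was highest in 2i-L, and the intervals of 2iJ+B-A overlapped those of both 2iJ and TSC. Ezh1 (ENSMUSG00000006920, chromosome 11, 101052429 to 101087777, minus strand), the paralog with the weaker methyltransferase activity, was at 44.1, 46.6, 48.0 and 63.9 CPM in the same order. 2iJ could not be separated from 2i-L or from 2iJ+B-A beyond counting error, and TSC stood above all 3. Per kilobase of exon, which allows genes to be compared, Ezh2 exceeded Ezh1 in every library, at 37.8 against 5.93 CPM per kb in 2i-L and 30.1 against 8.60 in TSC.

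Eed (ENSMUSG00000030619, chromosome 7, 97103166 to 97129493, minus strand) encodes the subunit that binds the methyl mark and stimulates the enzyme. It was at 197 CPM in 2i-L, 210 in 2iJ and 231 in 2iJ+B-A, and 104 in TSC. The R1 libraries lay close together and TSC stood well below them, with a highest-to-lowest ratio of 2.22. Suz12 (ENSMUSG00000017548, chromosome 11, 79806608 to 79847625, plus strand), the scaffold on which the partners assemble, was at 487, 526, 587 and 548 CPM, a ratio of 1.21 from highest to lowest. Per kilobase it was the most abundant of the 10 genes in 2iJ, 2iJ+B-A and TSC, at 106, 119 and 111 CPM per kb. In all, 89.8% of its transcript matches 2 other places in the genome, at 85.0% identity in the longest match, which makes its counts uncertain, although no gene listed at either place had counts.

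The largest differences were in the Polycomb-like partners, where Phf19 and Mtf2 were at opposite ends of their ranges in the R1 libraries and in TSC. Phf19 (ENSMUSG00000026873, chromosome 2, 34749277 to 34769546, minus strand) encodes a Polycomb-like protein that helps bring PRC2 to CpG-rich DNA. It had 294 counts in 2i-L, 237 in 2iJ and 880 in 2iJ+B-A, and 4015 in TSC, or 8.84, 6.90, 23.4 and 114 CPM. No neighboring levels overlapped, the order being 2iJ, 2i-L, 2iJ+B-A and TSC. TSC was 16.6 times the lowest library, and the R1 libraries alone spanned 3.39 times. Its counts are uncertain because 70.7% of the transcript matches another place at 82.7% identity, where no listed gene had counts.

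Mtf2 (ENSMUSG00000029267, chromosome 5, 108494693 to 108538023, plus strand), the main Polycomb-like protein of mESCs, had 18594 counts in 2i-L, 18071 in 2iJ and 16345 in 2iJ+B-A, and 4486 in TSC. Its levels were 559, 526, 435 and 128 CPM. They were lowest in TSC and next lowest in 2iJ+B-A, the libraries in which Phf19 was highest, and 2i-L was 4.38 times TSC. Jarid2 (ENSMUSG00000038518, chromosome 13, 44824843 to 45017012, plus strand), the partner that defines the other form of PRC2, was at 426, 472, 476 and 177 CPM. 2iJ and 2iJ+B-A did not differ beyond counting error, and TSC was the lowest, with a highest-to-lowest ratio of 2.70.

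The upstream regions of Phf19 and Mtf2 are shown because these genes had the widest ranges of the 10. Each sequence is the 250 bases before the transcription start, read on the strand of the gene from RefSeq (GRCm38.p6), in which 9 of the 10 genes were matched. Capitals mark matches to 4 motifs searched on both strands: CACGTG, an E-box, GGCGCC, a GC-rich motif bound by BMP-activated SMADs, TTCNNNGAA, a STAT motif, and GCGGGAA, an E2F-type motif.
Phf19 (chr2:34913977-34914226, minus strand): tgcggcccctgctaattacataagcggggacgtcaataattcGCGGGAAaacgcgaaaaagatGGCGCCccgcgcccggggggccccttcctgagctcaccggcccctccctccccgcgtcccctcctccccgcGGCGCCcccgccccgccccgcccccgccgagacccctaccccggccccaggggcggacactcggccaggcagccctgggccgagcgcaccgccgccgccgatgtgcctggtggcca
Mtf2 (chr5:108065424-108065673, plus strand): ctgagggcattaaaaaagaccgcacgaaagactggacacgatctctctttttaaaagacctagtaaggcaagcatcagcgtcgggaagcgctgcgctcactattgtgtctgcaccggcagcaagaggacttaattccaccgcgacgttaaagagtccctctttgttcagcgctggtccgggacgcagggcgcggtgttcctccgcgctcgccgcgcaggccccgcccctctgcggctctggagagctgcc
The Phf19 region held GGCGCC at 2 places and GCGGGAA at 1, without overlap, while neither Mtf2 region in RefSeq held any of the 4 motifs. Phf19 had 31 CpG dinucleotides and 75.2% G and C, against 23 and 59.2% for the Mtf2 region shown. Over 32851 regions of this length, 9.59% held GGCGCC, 3.82% GCGGGAA, 6.02% CACGTG and 7.02% TTCNNNGAA. Among the other matched genes, GGCGCC was found once each for Ezh2 and for 1 of the 2 Jarid2 regions, and GCGGGAA once for Suz12. These matches describe letters in a window and do not show that any factor binds there.

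Of the PRC1 subunits, Cbx2 was higher in 2iJ+B-A and higher again in TSC, while Cbx7 and Rnf2 varied less. Cbx2 (ENSMUSG00000025577, chromosome 11, 118884276 to 118892584, plus strand), a CBX protein that can compact chromatin, was at 39.6 CPM in 2i-L, 38.9 in 2iJ and 57.3 in 2iJ+B-A, and 110 in TSC. The first pair did not differ beyond counting error, and both stood below 2iJ+B-A and TSC. Its counts are uncertain, since 62.4% of the transcript matches elsewhere. Cbx7 (ENSMUSG00000053411, chromosome 15, 79746237 to 79801549, minus strand), the main CBX protein of undifferentiated mESCs, was at 222, 236, 216 and 232 CPM. It had the narrowest range of the 10 genes, with a ratio of 1.09 from highest to lowest, and TSC overlapped 2iJ. Rnf2 (ENSMUSG00000026484, chromosome 1, 153316536 to 153347953, minus strand), encoding the ubiquitin ligase, was at 223, 230, 201 and 170 CPM. It was lowest in TSC, and 2i-L overlapped 2iJ.

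**Figure D1:**
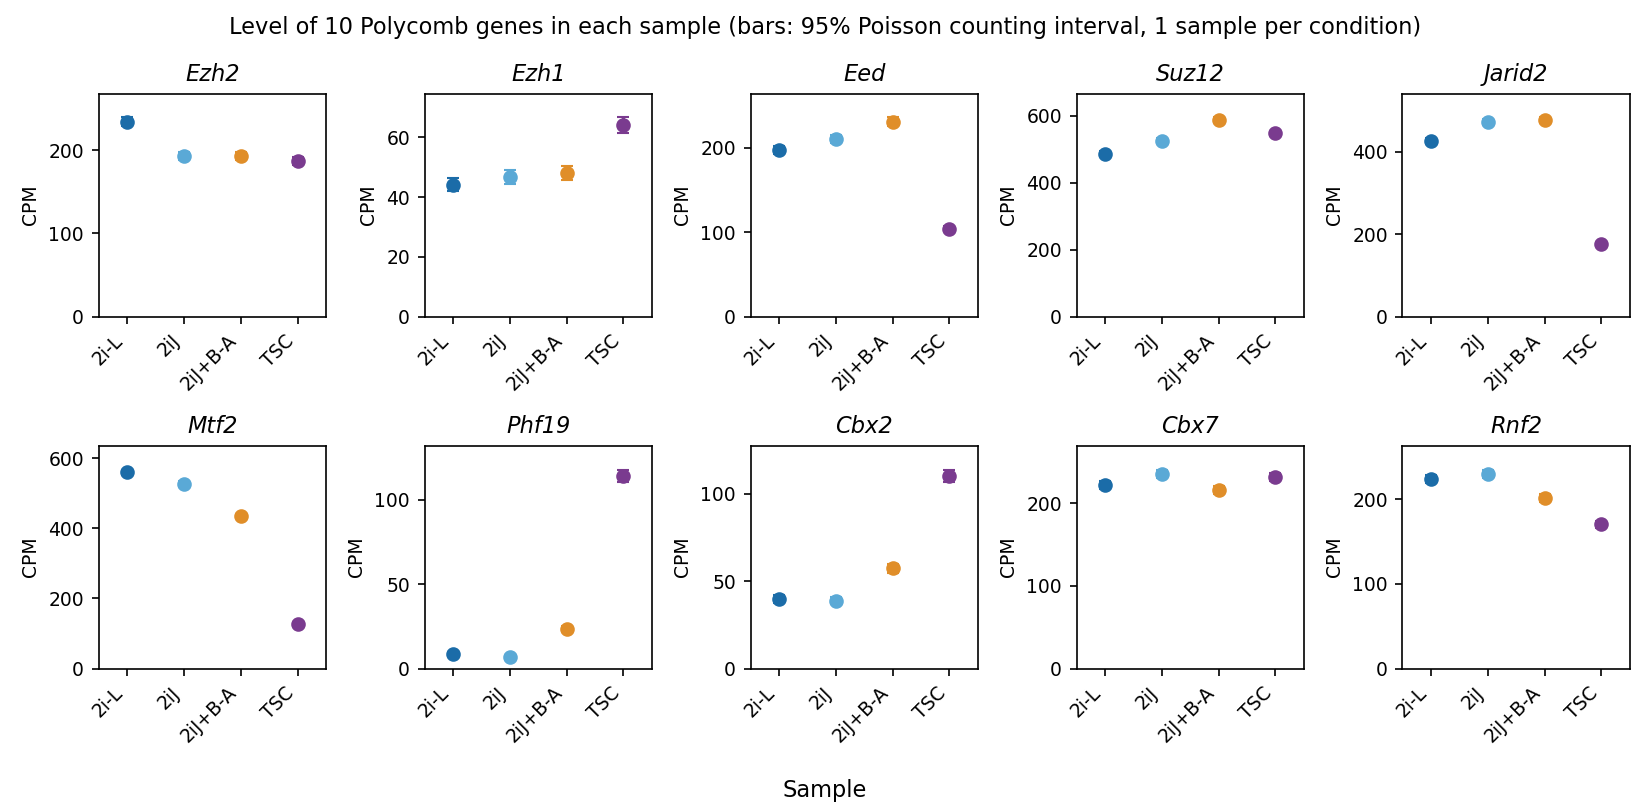
Level of each of the 10 Polycomb genes (CPM after TMM scaling, 1 panel per gene, each axis from 0) in the 4 libraries, with 95% counting intervals as error bars and 1 sample per condition. Phf19 runs from 6.90 CPM in 2iJ to 114 in TSC and Mtf2 from 559 in 2i-L to 128 in TSC, while Cbx7 stays between 216 and 236.

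Adding the JAK inhibitor to 2i without LIF left all 10 genes within 2-fold. The ratio of 2iJ to 2i-L was taken as the log2 ratio of CPM with 0.5 CPM added, and a gene was counted when this reached 1 in size, or 2-fold. None of the 10 was counted, against a background of 1.23% higher and 0.918% lower and 2.15% in either direction among the 14263 genes that reached 1 CPM in 1 or more libraries. All 10 genes were over that level in every library. The ratios ran from −0.34 for Phf19 (interval −0.57 to −0.10) to 0.15 for Jarid2 (0.11 to 0.18), within the −0.52 to 0.61 that held the central 90% of genes. Ezh2 was lower in 2iJ by a log2 ratio of −0.28 (−0.33 to −0.23). The intervals of Ezh1, Cbx2 and Rnf2 included 0. The median of the 10 was 0.06, beside 0.00 for all 14263 genes.

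With BMP4 and the ALK5 inhibitor added to 2iJ, Phf19 was higher by 1.69 on the log2 scale (1.5 to 1.89), or 3.23-fold, and was the only one of the 10 genes past 2-fold. The background was 5.81% of genes higher and 3.17% lower, 8.97% in either direction, so 1 in 10 lay close to what all genes gave. Among the 14263 genes, 98.4% had a lower ratio than Phf19. Cbx2 was higher by 0.55 (0.45 to 0.65), above 87.3% of genes, and Mtf2 was lower at −0.27 (−0.30 to −0.24). Suz12 was at 0.16, Eed at 0.14, Cbx7 at −0.12 and Rnf2 at −0.19. Ezh1, Ezh2 and Jarid2 had intervals that included 0, at 0.04, −0.00 and 0.01. The median of the 10 was 0.03, beside −0.00 for all genes.

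TSC differed from 2iJ past 2-fold in 5 of the 10 genes, with Phf19 and Cbx2 higher and Mtf2, Jarid2 and Eed lower. Of all genes, 19.4% were counted as higher and 17.6% as lower, 37% in either direction, so the count of 5 in 10 was not far above the background. Phf19 was higher by 3.96 (3.78 to 4.14), or 15.5-fold on this scale, above 98.9% of genes. Cbx2 was higher by 1.49 (1.40 to 1.58), or 2.81-fold. Mtf2 was at −2.04 (−2.09 to −1.99), Jarid2 at −1.42 (−1.46 to −1.37) and Eed at −1.01 (−1.07 to −0.95), the last with an interval that crossed the 2-fold line. Eed was under 2-fold when scaled by total counts (−0.93), just under it with 2 CPM added, and under it against 2i-L (−0.92), which left 2 genes lower. Of the genes inside 2-fold, Ezh1 was higher at 0.45 (0.36 to 0.55) and Rnf2 lower at −0.43 (−0.48 to −0.38). Suz12 was at 0.06, Ezh2 at −0.05 and Cbx7 at −0.02, and the sign of the last pair turned under other settings. The median of the 10 was −0.03, beside 0.00 for all genes. At a 1.5-fold threshold the counts for the 10 genes were unaltered in all 3 comparisons. The background then was 5.38% higher and 3.91% lower (9.29% either way) for 2iJ against 2i-L, 11.9% and 8.72% (20.6%) for 2iJ+B-A against 2iJ, and 28.9% and 27.5% (56.4%) for TSC against 2iJ. All 3 comparisons share the 2iJ library, so a chance deviation in it would enter the last pair with the same sign and the comparison with 2i-L with the opposite sign.

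**Figure D2:**
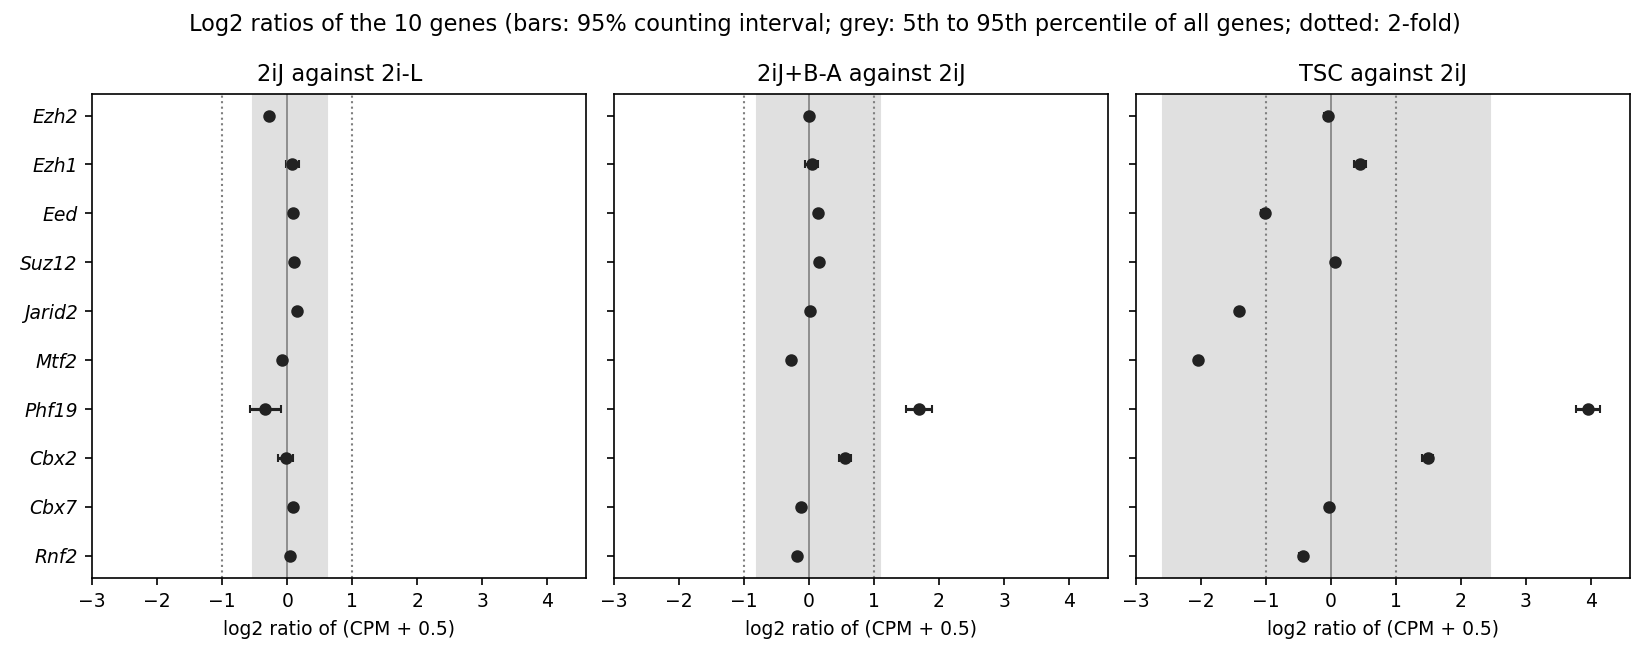
Log2 ratios (CPM with 0.5 CPM added) of the 10 genes in 2iJ against 2i-L, 2iJ+B-A against 2iJ and TSC against 2iJ, with 95% counting intervals, 1 sample per condition. Phf19 stands at −0.34, 1.69 and 3.96 in the 3 comparisons and Mtf2 at −0.09, −0.27 and −2.04. Suz12 and Cbx7 stay near 0, and Ezh2 is at −0.28, −0.00 and −0.05.

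The make-up of each family of interchangeable subunits was then read within single libraries, where it does not depend on scaling between them. Shares are percentages of counts per kilobase of exon. In the Polycomb-like family, Mtf2 made up 94.9% in 2i-L, 94.2% in 2iJ and 90.4% in 2iJ+B-A, and 45.9% in TSC. Phf19 made up 1.57%, 1.29%, 5.09% and 42.9%, with counting intervals in TSC of 41.9% to 44.0% for Phf19 and 44.9% to 46.9% for Mtf2. Phf19 and Mtf2 thus took similar shares in TSC, and Phf19 came first there (46.0% against 42.0%) when reads were counted without regard to strand. In that count Mtf2 went from 4486 to 3831 in TSC and Phf19 from 4015 to 4018. Exons of Mtf2 share 395 bases with exons on the opposite strand and those of Phf19 share 0. The part of this overlap was not tested. Phf1, the remaining paralog, was at 3.51%, 4.55%, 4.48% and 11.2%.

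Jarid2 made up 73.6%, 76.6%, 69.1% and 55.8% of the counts per kilobase it shared with Aebp2. AEBP2 is a zinc-finger partner in the same form of PRC2, not an interchangeable paralog of JARID2. The counts of Aebp2 are uncertain, since 48.6% of its transcript matches elsewhere. With the longest transcript used as the length, Aebp2 and Jarid2 were level in TSC, at 50.1% and 49.9%. The 2 enzymes also differed in balance, with Ezh1 at 13.6%, 16.7%, 17.2% and 22.2% of the EZH pair and Ezh2 the more abundant in all 4 libraries.

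Among the 4 CBX genes read here, Cbx7 held 73.8% in 2i-L, 75.5% in 2iJ and 70.6% in 2iJ+B-A, and 52.7% in TSC, although its own level hardly differed. The share taken by Cbx2 was 11.7%, 11.1%, 16.6% and 22.3%. Cbx6 and Cbx8 took the rest, and Cbx8 went from 0.789% in 2iJ to 5.80% in TSC. Of the exon bases of Cbx6, 18.7% overlap exons of another gene on the same strand. The part of this overlap in the CBX shares was not tested. In the PCGF family, Pcgf6, part of a variant PRC1 with E2F6 and MGA, took the largest share in 2i-L and 2iJ, at 33.1% and 32.2%, and Pcgf5 12.4% and 14.2%. In 2iJ+B-A Pcgf5 stood at 27.8% and Pcgf6 at 27.6%, but at 23.4% and 31.8% with the longest transcript as the length. In TSC Pcgf5 held 45.8% and Pcgf6 12.6%.

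**Figure D3:**
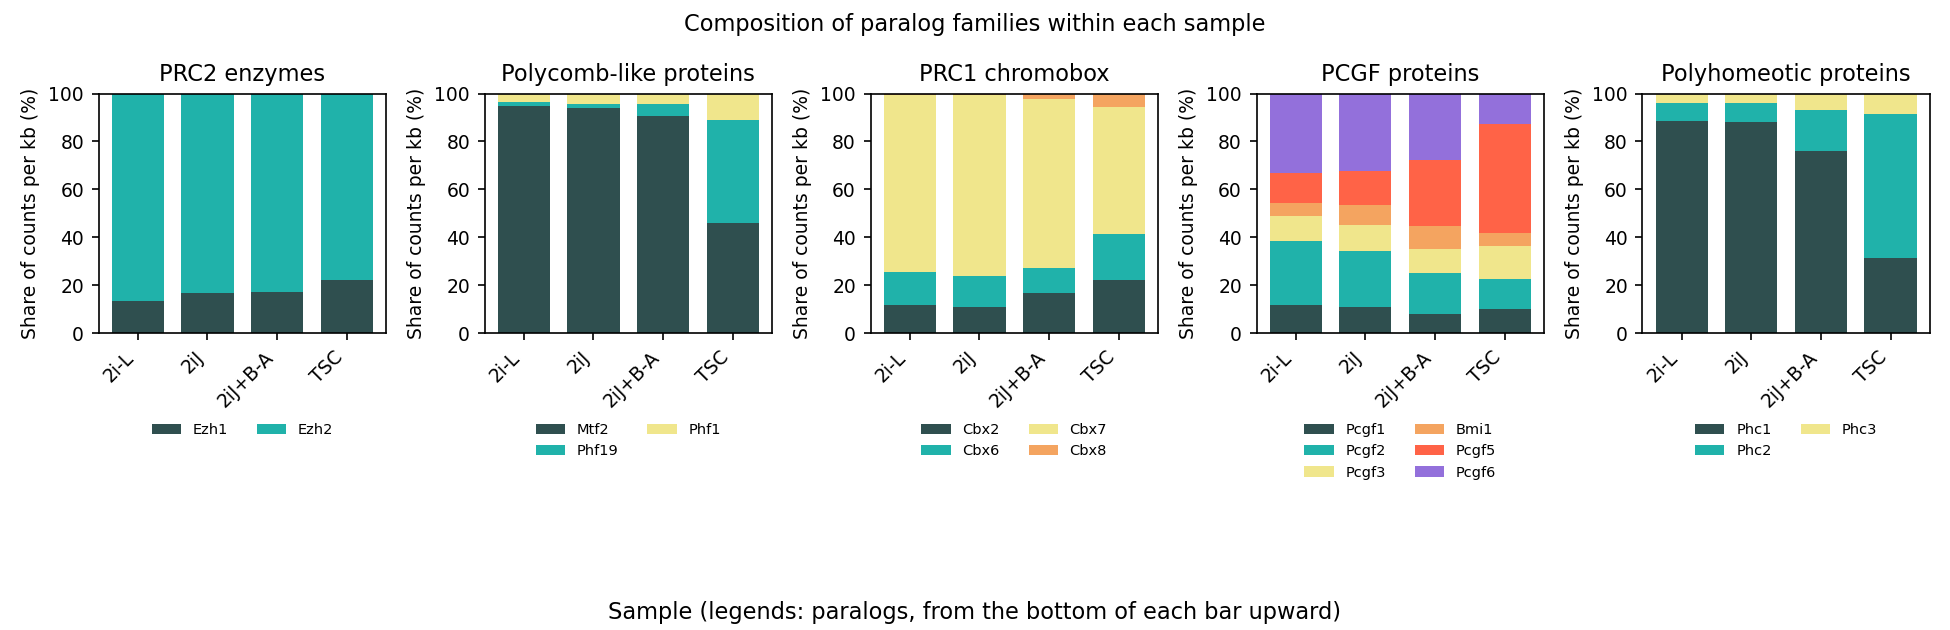
Share of each paralog in its family (percent of counts per kilobase of exon, stacked to the whole) within each of the 4 libraries, with panels for the EZH, Polycomb-like, CBX, PCGF and PHC families and paralogs colored as in the legends. Phf19 takes 1.29% of the Polycomb-like family in 2iJ and 42.9% in TSC, and Cbx7 goes from 75.5% to 52.7% of the CBX genes shown.

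The other PRC2 and PRC1 subunits were read in the same way from a list of 30 genes, of which 29 reached 1 CPM in a library. The exception was Ezhip, an inhibitor of PRC2, with at most 5 counts. In 2iJ against 2i-L none of the 29 was past 2-fold, against 2.15% of all genes, and the median was 0.08. The highest ratio was 0.63, for Bmi1, a PCGF protein whose counts are uncertain because of a similar sequence elsewhere.

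In 2iJ+B-A against 2iJ, 5 of the 29 were higher and none lower past 2-fold, with a median of 0.05, against 5.81% and 3.17% of all genes. The chromobox gene Cbx8 was higher by 1.25, going from 2.39 to 6.39 CPM. With 2 CPM added in place of 0.5, 3 of the 29 were counted. Bcor and Bcorl1, which encode corepressors of a variant PRC1, were higher by 1.59 and 1.81. Bcor went from 68.6 to 207 CPM and Bcorl1 from 15.4 to 55.4. Epop, which couples PRC2 to elongin, was higher by 1.29, from 118 to 288 CPM, but at 0.89 it was under 2-fold against 2i-L, where it stood at 155 CPM. Pcgf5, of a further variant PRC1, was higher by 1.02, and its interval crossed the 2-fold line, as did that of Cbx8.

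In TSC against 2iJ, 6 of the 29 were higher and 5 lower past 2-fold, with a median of 0.22, against 19.4% and 17.6% of all genes. Higher were Cbx8 (3.13), Phc2 (1.95), Bcor (1.94), Yaf2 (1.72), Pcgf5 (1.70) and Cbx6 (1.10). Lower were Phc1 (−2.40), Pcgf6 (−1.31), L3mbtl2 (−1.23), Epop (−1.20) and Kdm2b (−1.02, with an interval that crossed the 2-fold line, and −0.85 against 2i-L). PHC1 and PHC2 are paralogs that link canonical PRC1 complexes to one another. Phc1 was at 223, 243, 141 and 45.6 CPM in 2i-L, 2iJ, 2iJ+B-A and TSC, and Phc2 at 25.0, 29.2, 41.6 and 115. Epop and Bcorl1 were highest in 2iJ+B-A, at 288 and 55.4 CPM, while TSC was at 51.0 and 16.1.

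**Figure D4:**
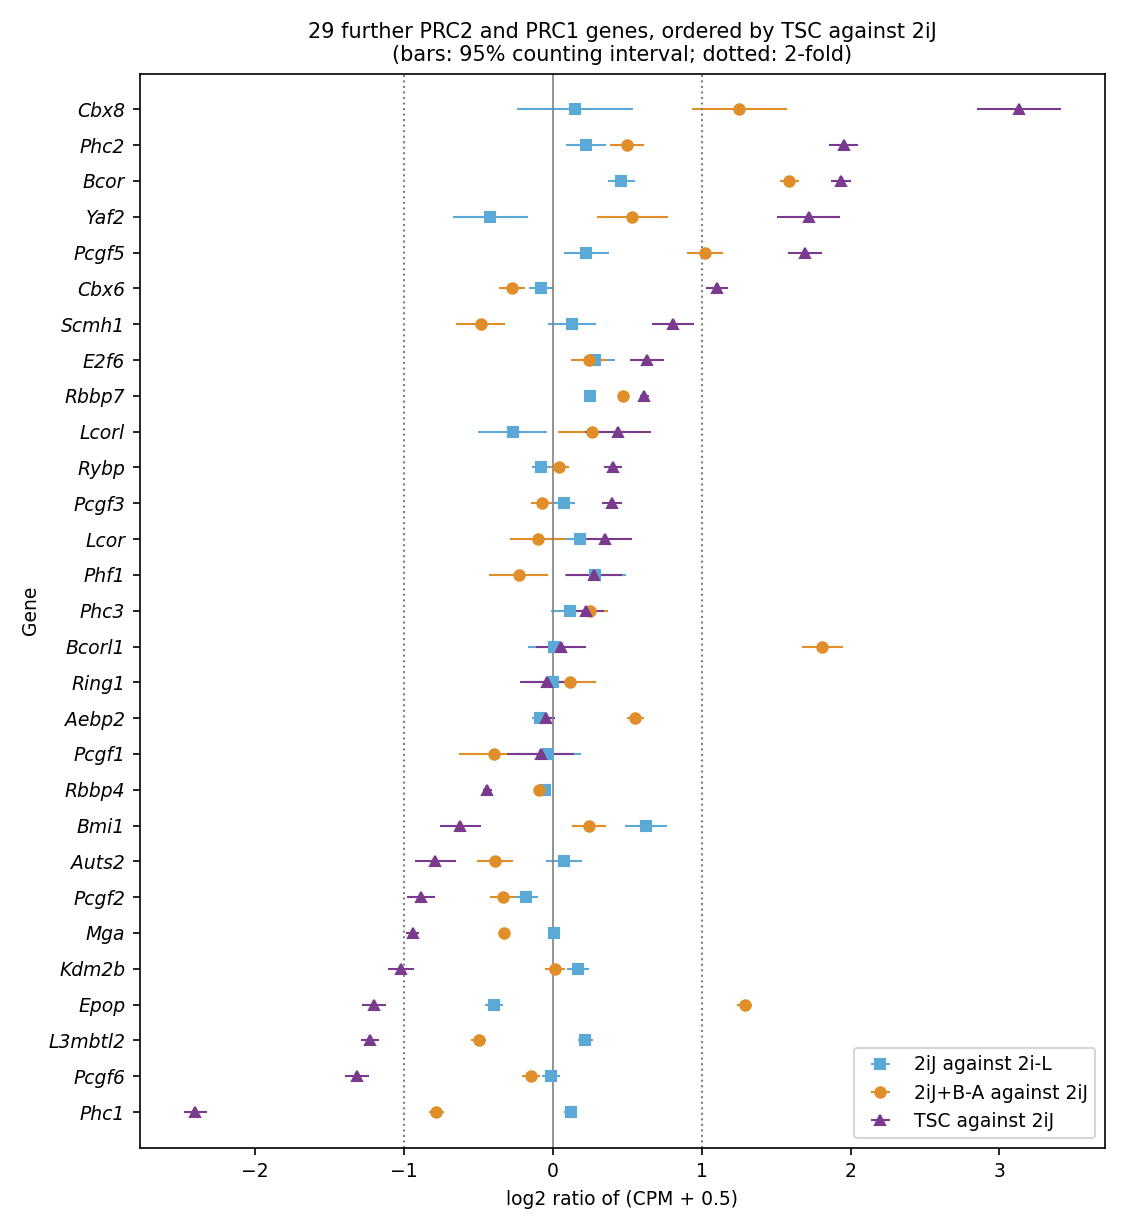
Log2 ratios (CPM with 0.5 CPM added) of the other PRC2 and PRC1 subunits in the 3 comparisons, 1 sample per condition, with 95% counting intervals as bars and the 2-fold lines dotted. Bcorl1 lies highest in 2iJ+B-A (1.81), Cbx8 in TSC (3.13) and Phc1 lowest in TSC (−2.40).

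The genes of the machinery that takes off the Polycomb marks were mostly within 2-fold. The 7 listed were the H3 demethylases Kdm6a and Kdm6b, the H2A deubiquitinases Bap1 and Usp16, and Asxl1, Asxl2 and Asxl3, which encode cofactors of BAP1. None was past 2-fold in 2iJ against 2i-L or in 2iJ+B-A against 2iJ, against 2.15% and 8.97% of all genes in either direction. In TSC 1 of the 7 was, below the 37% of all genes. This was Asxl3, at −2.11, with 137 counts in 2iJ and 19 in TSC. The medians were 0.03, −0.24 and −0.48.

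Of 20 developmental genes known as common Polycomb targets in mESCs, 14 reached 1 CPM in a library. Several passed only through the library where they are high, so their counts describe these genes and are no measure of targets at large. Cdx2 (1.21) and Pax6 (1.01) were higher in 2iJ than in 2i-L, against 1.23% of all genes, but neither was past 2-fold with 2 CPM added. Their intervals (0.89 to 1.53 and 0.61 to 1.40) crossed the 2-fold line. In 2iJ+B-A, 6 were higher than in 2iJ, namely Hand1 (5.84), Gata6 (2.57), Cdx2 (2.24), Sox17 (1.63), Lhx2 (1.04) and Gata4 (1.01), and 3 were lower, namely T (−2.35), Pax6 (−1.86) and Eomes (−1.78), against 5.81% and 3.17% of all genes. Against 2i-L, Lhx2 (0.67), Gata4 (0.90) and Pax6 (−0.85) were under 2-fold, which left 4 higher and 2 lower. With 2 CPM added, 3 were higher than in 2iJ. The intervals of Lhx2 (0.57 to 1.47) and Gata4 (0.64 to 1.38) against 2iJ crossed the 2-fold line. Hand1, a trophoblast and mesoderm transcription factor, stood at 1.62 CPM in 2i-L, 1.31 in 2iJ and 104 in 2iJ+B-A, and 383 in TSC.

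In TSC, 10 of the 14 were higher than in 2iJ and none lower, against 19.4% and 17.6% of all genes. Hand1 (7.73), Eomes (4.01), Gata4 (3.45) and Cdx2 (2.66) led them, followed by Hoxd13 (2.04), Gata6 (1.8), Foxa2 (1.60), Pax3 (1.52) and Cdkn2a (1.21). Lhx5 had 68 counts in TSC and 0 in 2iJ, at least 22.2-fold higher against 3 counts in the 2iJ library. Foxa2 and Pax3 had 12 and 35 counts in 2iJ. With 2 CPM added, Foxa2, Pax3 and Lhx5 were under 2-fold in TSC against 2iJ. The absence of lower genes holds only among the 14. The 1 CPM filter left out Hoxa9, past 2-fold lower in TSC with 29 counts in 2iJ and 6 in TSC. It also left out Pax7, past 2-fold higher with 4 counts in 2iJ and 27 in TSC. Eomes took opposite directions, lower in 2iJ+B-A (2.74 CPM) and higher in TSC (179 CPM) than in 2iJ (10.7 CPM). The medians over the 14 were −0.06, 0.69 and 1.70. The list shares Cdx2, Eomes, Hand1, Gata4, Gata6 and Sox17 with the TSC and primitive endoderm markers, so it is not independent of them.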

How the data were processed

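Poly-A selected, strand-specific, paired RNA-seq of 4 samples, 1 per group, was used. Per the labels and methods, the authors trimmed reads at quality 20 (TrimGalore with cutadapt), ran CASAVA 1.8.2 and aligned with STAR 2.4.2a to NCBIM37. The deposited values are whole-number read-pair counts per gene in 3 strand settings, from which the reverse-strand column was taken (29.1 to 32.1 times the pairs of the opposite column). The annotation release used for counting was not given in the sources used here, and 37205 of 37620 identifiers were named from GENCODE vM1. The study's batch correction is not part of these counts, and the labels give all 4 samples the same batch mark. Multimapping pairs (6.72% to 7.01%) and rows naming no gene were left out.

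Levels were scaled with TMM factors (0.969 to 1.035, edgeR 4.0.16 in R 4.3.3). The 14263 genes that reached 1 CPM in any sample formed the background. With 1 sample per group there was no test: log2 ratios had 0.5 CPM added, with exact Clopper-Pearson 95% intervals on the counts of both libraries, and exact Poisson intervals on levels (scipy 1.17.1), all for counting error only. A count of 3 corresponded to 0.0799 to 0.0902 CPM. The log2 ratio and its counting interval were tested on simulated counts, and the other steps were not. All 10 members were named, and from the other lists each gene past 2-fold in any comparison. Bmi1 and Ezhip were named in addition after their values were seen. The members and lists were chosen with earlier results of these data known, and the promoter motifs, the chromosome neighborhoods and the PHC and RING1 families were chosen after values were seen. Transcripts were aligned to the genome with minimap2 2.31, and counts were called uncertain where such matches elsewhere covered over 40% of the transcript. Alternatives were DESeq2 1.42.0 size factors, total counts, unstranded counts, other pseudocounts (0.1 and 2 CPM), a 1.5-fold threshold, no filter, 2i-L as the reference and transcript length. Tfap2c was not analysed here, and 1 further listed PRC1 gene is not reported here.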

Additional observations from a re-analysis of the deposited data

Results flagged for a closer look

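Signal on the strand opposite to the gene, in a count column that the comparisons did not use, exceeded the counts on the gene's own strand in every library for Lcorl and Pax6. For Lcorl, which encodes a PRC2-associated factor, the opposite-strand read pairs numbered 909 in 2i-L, 857 in 2iJ and 747 in 2iJ+B-A, and 850 in TSC, beside 308, 261, 346 and 368 on its own strand. For Pax6, a developmental target, they numbered 389, 440, 498 and 488, beside 47, 115, 21 and 54. Exons of Lcorl share 942 bases with exons of other genes on the opposite strand, and those of Pax6 share 5542. The part of these overlaps in the signal was not tested. The ratios given for both genes rest on the strand of the gene alone. For the 10 Polycomb genes the opposite strand held at most 1.67% of the pairs of both strands.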

How the results depend on the processing

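Of 170 log2 ratios of the 10 genes recomputed under the alternatives, 141 stayed within the counting interval of the reported value, 29 did not, and none that was called turned sign. Phf19 ranged from 1.36 to 1.75 in 2iJ+B-A and from 3.62 to 4.03 in TSC, Mtf2 from −2.13 to −1.96 and Cbx2 from 1.46 to 1.57 in TSC. Eed ranged from −1.01 to −0.92 and was under 2-fold with total counts, with 2 CPM added or with 2i-L as the reference. With 2 CPM added, 3 other subunits instead of 5 were higher in 2iJ+B-A. At 1.5-fold, the count of other subunits higher in 2iJ became 1 instead of 0, lower in 2iJ+B-A 1 instead of 0, lower in TSC 9 instead of 5 and higher in TSC 9 instead of 6, a change built into the smaller fold. The most abundant gene differed between 2iJ and TSC in 1 of 5 groups compared. This was PCGF, but not EZH, Polycomb-like, CBX or the partners Jarid2 and Aebp2, which are not paralogs. It differed in 2 groups with unstranded counts (Phf19 over Mtf2) or with the longest transcript as the length (Aebp2 over Jarid2). PHC, added after its values were seen and not among these 5, also differed (Phc1 in 2iJ, Phc2 in TSC). No scaling moved the median of all genes by over 0.082. No paired analysis was possible because each group has 1 sample, and for the same reason no sample could be left out. Depth limits Phf19 in 2iJ (237 counts) and the developmental genes under 3 counts most, and culture-to-culture variation is unknown for every value.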

Other observations

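In the PHC family, Phc1 made up 88.6% of the counts per kilobase in 2i-L, 88.1% in 2iJ and 76.1% in 2iJ+B-A, and 31.5% in TSC, and Phc2 7.46%, 7.99%, 16.9% and 59.8%. Rnf2 made up 94.6%, 94.7%, 93.5% and 93.1% of the counts per kilobase it shared with Ring1. Both families were chosen after their values were seen.

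Around Cbx6 and Cbx7 on chromosome 15, Pdgfb was higher by 1.27 in 2iJ+B-A and 2.51 in TSC than in 2iJ, and Apobec3 was lower at −1.36 and −0.98, while Cbx7 between them was at −0.12 and −0.02. Sun2 (0.38 and 1.21) and Nptxr (0.26 and 2.48) were also past 2-fold in TSC, and Dnalc4 was at 0.10 and −0.14. Nptxr was at 0.03 CPM in 2iJ, under the level of 3 counts, and at 2.45 in TSC, so its ratio depends on the 0.5 CPM added.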
